A study of Caenorhabditis elegans with 2 samples.

Results

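Autosomal single-gene promoter regions are the ChIP-seq regions whose summit, the position of highest signal, lay in the promoter window of protein-coding genes that all ran in 1 direction. They were taken from the series' pooled region list on the autosomes. The window ran from 1000 bp upstream to 200 bp downstream of an annotated 5′ end, and summits within 200 bp of a tRNA, snRNA, snoRNA or rRNA gene were left out. The rule was met by 2788 of 13052 pooled regions, and 10685 of the 13052 were autosomal. The rule used position and strand only, and no measure of signal. Of the 2788 regions, 2729 had 1 gene in reach, 58 had 2 and 1 had 3. They covered 2605 of 17242 autosomal protein-coding genes (15.1%), 227 of them with 2 or more regions and rpom-1 with 4.

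The experiment was chromatin immunoprecipitation with sequencing of NHR-76, a nuclear hormone receptor of Caenorhabditis elegans. It used whole L4 larvae, of mixed sex, of strain OP203 (unc-119(ed3) III; wgIs203). These carry the insertion wgIs203 with eGFP-tagged nhr-76 besides the unc-119 mutation. There was 1 group with 2 biological replicates, and no wild-type, untagged or nhr-76 mutant group was used here. Nothing in the labels gives the transgene's expression pattern or copy number, whole larvae mix all tissues, and the labels name the antibody only as nhr-76.

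Nuclear hormone receptors are transcription factors that bind DNA through zinc fingers, often at sites built on the element AGGTCA, and many respond to a lipid-like ligand. The family is greatly enlarged in C. elegans. NHR-76 is known from work on fat loss in the intestine, where it acts downstream of the tachykinin receptor NPR-22 to raise expression of the lipase gene atgl-1. Many C. elegans mRNAs are trans-spliced and many genes lie in operons, so an annotated 5′ end is often not the place where transcription starts.

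The sequences below show what lay under the strongest regions with a called peak. A called peak is an entry of the authors' list of regions reproducible between replicates, with its summit within 200 bp. The first 5 lines are from the 6 strongest of 46 such regions whose window held no annotated exon, with 1 of the 6 not shown. The last 4 were added because they hold the words CTTGCGCA or ACGCAGAC. Each is the 200 bp at the summit in ce11 coordinates, read 5′ to 3′ on the strand of the gene from the RefSeq copy of the assembly. Capitals mark, on either strand, AACACGCT, CTTGCGCA, GCGCCAGC, ACGCAGAC, CTGCGTCT, the E-box CACGTG and the repeat GAGAGAG.
cdc-48.1 (chrII:10563477-10563676, minus strand): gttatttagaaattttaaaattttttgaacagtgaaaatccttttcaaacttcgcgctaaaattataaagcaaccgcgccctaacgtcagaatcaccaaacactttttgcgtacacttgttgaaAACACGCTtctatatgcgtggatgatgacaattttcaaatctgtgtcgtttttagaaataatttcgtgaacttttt
F21C10.10 (chrV:9095654-9095853, plus strand): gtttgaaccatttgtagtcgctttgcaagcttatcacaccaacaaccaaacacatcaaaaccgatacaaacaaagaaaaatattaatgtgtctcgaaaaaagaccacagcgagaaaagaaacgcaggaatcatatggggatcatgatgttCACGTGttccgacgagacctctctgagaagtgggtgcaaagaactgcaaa
rpl-35 (chrIII:7854584-7854783, plus strand): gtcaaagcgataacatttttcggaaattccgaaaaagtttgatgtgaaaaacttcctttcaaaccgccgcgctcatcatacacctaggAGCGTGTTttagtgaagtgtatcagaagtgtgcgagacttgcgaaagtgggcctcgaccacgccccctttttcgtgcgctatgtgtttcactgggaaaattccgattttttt
cox-5A (chrIII:12905104-12905303, plus strand): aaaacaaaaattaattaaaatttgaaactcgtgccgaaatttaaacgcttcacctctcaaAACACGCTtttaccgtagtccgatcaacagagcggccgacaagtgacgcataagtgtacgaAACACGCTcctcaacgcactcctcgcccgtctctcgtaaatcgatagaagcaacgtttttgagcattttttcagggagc
ZK1320.9 (chrII:9686852-9687051, minus strand): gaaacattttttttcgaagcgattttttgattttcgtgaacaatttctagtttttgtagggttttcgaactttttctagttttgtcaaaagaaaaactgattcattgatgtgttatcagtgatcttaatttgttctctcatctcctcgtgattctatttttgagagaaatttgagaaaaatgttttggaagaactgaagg
K12H4.5 (chrIII:8043870-8044069, plus strand): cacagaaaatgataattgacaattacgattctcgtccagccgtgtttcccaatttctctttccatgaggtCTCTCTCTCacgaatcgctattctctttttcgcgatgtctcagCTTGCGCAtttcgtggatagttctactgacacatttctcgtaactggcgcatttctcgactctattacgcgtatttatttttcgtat
sec-61.G (chrV:10897275-10897474, minus strand): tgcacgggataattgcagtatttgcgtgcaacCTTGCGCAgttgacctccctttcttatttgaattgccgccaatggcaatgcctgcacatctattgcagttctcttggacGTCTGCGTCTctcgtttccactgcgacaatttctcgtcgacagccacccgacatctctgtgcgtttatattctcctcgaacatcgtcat
eelo-2 (chrIV:17249808-17250007, plus strand): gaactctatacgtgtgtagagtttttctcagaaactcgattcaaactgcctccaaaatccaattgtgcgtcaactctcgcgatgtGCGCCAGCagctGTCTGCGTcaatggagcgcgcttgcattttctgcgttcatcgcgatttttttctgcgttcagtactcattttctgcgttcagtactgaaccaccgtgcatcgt
C34C12.8 (chrIII:3460150-3460349, plus strand): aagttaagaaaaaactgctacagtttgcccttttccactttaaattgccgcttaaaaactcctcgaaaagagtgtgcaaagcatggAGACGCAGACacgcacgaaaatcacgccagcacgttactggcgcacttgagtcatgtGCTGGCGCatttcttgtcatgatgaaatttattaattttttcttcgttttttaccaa

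The 8-letter word AACACGCT was present in 3 of these 5 windows, those of cdc-48.1, rpl-35 and cox-5A, and cox-5A held it 2 times. F21C10.10 held the E-box CACGTG, and ZK1320.9 held none of the 7 sequences searched. In sec-61.G and C34C12.8 the words ACGCAGAC and CTGCGTCT overlapped, since one read on the opposite strand shares its core with the other. These words were picked after the windows had been compared, so they describe the windows and test nothing.

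Reproducible signal was found at a small share of the class. A called peak lay at 90 of the 2788 regions (3.23%), against 2.48% of all 13052 pooled regions and 2.19% of all autosomal ones. Of the 319 called peaks, 88 accounted for these 90 regions. Promoter regions shared by genes running in opposite directions had a called peak more often, at 42 of 541 (7.76%), and autosomal regions outside promoter windows less often, at 93 of 7179 (1.30%). Membership in the 1000 strongest regions of both replicates gave the same order: 118 single-gene promoter regions (4.23%), 53 divergent ones (9.80%) and 148 outside (2.06%), with 3.49% over the whole pooled list. Both measures rest on agreement of the same 2 replicates, so they are not independent. No test was made, because regions of 1 experiment share their libraries and are not replicates.

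The order held in each replicate taken alone. Among the 1000 strongest regions of replicate 1, 26.1% were autosomal single-gene promoter regions, against 19.2% of the rest of its 26700 regions. In replicate 2 these were 26.9% and 18.9% of 24791 regions. Divergent promoter regions made up 10.4% of the strongest and 2.78% of the rest in replicate 1, and 8.90% and 2.82% in replicate 2. Regions outside promoters made up 38.3% of the strongest in both replicates, against 59.4% and 60.0% of the rest. As a share of each class, 5.03% and 5.65% of single-gene regions, 12.7% and 11.7% of divergent regions and 2.45% and 2.61% of outside regions were among the strongest 1000.

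**Figure D1:**
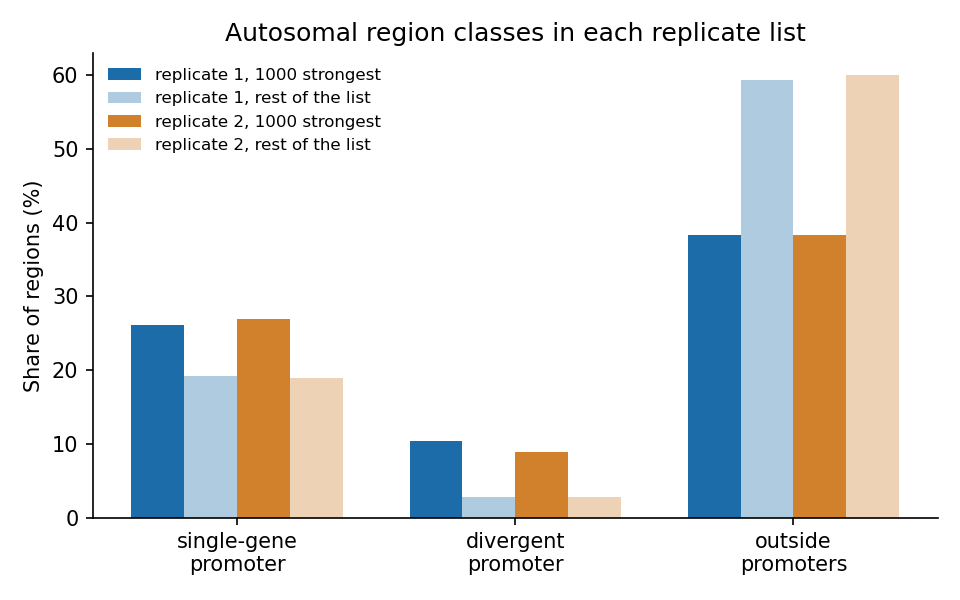
Share (%) of autosomal regions in each class among the 1000 strongest regions (dark bars) and the rest of the list (pale bars), for replicate 1 (blue) and replicate 2 (orange). Single-gene promoter regions rise from 19.2% and 18.9% of the rest to 26.1% and 26.9% of the strongest, while regions outside promoters fall from 59.4% and 60.0% to 38.3%.

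The signal value, the authors' score of each pooled region, has no stated scale and serves here as a rank only. It was highest at rpl-3, a protein of the large ribosomal subunit, at 252. The region ranked 24th in replicate 1 and 28th in replicate 2. The next, 24th in the pooled list, was cdc-48.1, which encodes a p97-type ATPase that extracts ubiquitinated proteins, with ranks 25 and 33. F21C10.10, whose RefSeq product has a 3-hydroxyacyl-CoA dehydrogenase domain, scored 171 with ranks 34 and 39. The large-subunit gene rpl-35 scored 161 with ranks 46 and 36, and the histone H4 gene his-37 scored 151 with ranks 42 and 47. These 5 are the members that ranked within the first 50 of both replicates. H4 genes occur in many near-identical copies, although every 36 bp stretch of the his-37 window occurred once in the genome.

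Further down, cox-5A, a subunit of cytochrome c oxidase, scored 135, with ranks 61 and 44. The acetyl-CoA hydrolase gene ZK1320.9 scored 125, with ranks 49 and 92. The constitutive HSP70 gene hsp-1 was 63rd in the pooled list, with ranks 51 and 84. The peptidase gene eelo-2 scored 114 (57 and 97) and the aralkylamine N-acetyltransferase gene M7.12 scored 112 (93 and 57). The M7.12 summit was 28 bp inside the gene, whereas the others named to here lay upstream, for instance at -68 bp from the annotated 5′ end (his-37) and -513 bp (F21C10.10), where negative distances are upstream. The next 15 were C47E8.4 (a FAM50 homolog), F55H12.7, tos-1, pgph-3 (phosphoglycolate phosphatase), slrp-1, F02E9.5, ZK1290.5, dmd-7 (a DM-domain transcription factor), F17C11.4, cbp-1 (a CBP/p300 acetyltransferase), vig-1, K12H4.5, wdr-23 (a CUL4 substrate receptor that represses SKN-1), wwp-1 (a HECT ubiquitin ligase) and F59B1.8, with signal values of 109 down to 84.4.

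Called and uncalled regions overlapped in signal value. Called members ran from 252 down to 30.5 with a median of 68.6, and members with no called peak ran up to 63.2 with a median of 19.5. The lowest called values, 31.8 and 30.5, were at the weaker called regions of F26A3.4 and F56C9.10. Each lay close to a stronger called region of the same gene, and the next value up was 44.9. The strongest with no called peak were T28B8.1 at 63.2 (ranks 218 and 599), the shared region of rps-28 and Y41D4B.4 at 62.3 (375 and 304), jun-1 at 60.7 (201 and 542), allo-1 at 60.6 (302 and 524) and Y17G7B.20 at 60.5 (421 and 324). Here rps-28 encodes a small-subunit ribosomal protein, jun-1 a c-Jun homolog and allo-1 an autophagy adaptor for paternal mitochondria. All 5 were among the 1000 strongest of both replicates, as were 43 uncalled members in all.

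Most called members were strong in both replicates, with differing ranks, and the called list was itself chosen for agreement between the replicates. Of the 2788 regions, 2260 had a matching summit in replicate 1, 1927 in replicate 2, 1442 in both and 43 in neither. Members ranked among the strongest 1000 numbered 262 in replicate 1, 265 in replicate 2 and 118 in both. Among the 90 called members, 75 were in the strongest 1000 of both, 13 of replicate 1 only and 2 of replicate 2 only. Their median rank was 193 in replicate 1 and 243 in replicate 2. For 48 of the 90 the ranks differed more than 2-fold. The better rank was in replicate 1 for 56 of them and in replicate 2 for 34.

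The widest gaps had the better rank in replicate 1. The genes named for them were chosen after their values were seen. Y57A10A.14 ranked 234 in replicate 1 and 8434 in replicate 2. The gene unc-23, which encodes a BAG-domain partner of HSP70, ranked 126 and 4469. T11G6.3 ranked 212 and 4066. In the other direction the gap, taken as a ratio of ranks, was widest at eif-3.C, a subunit of translation initiation factor 3. It ranked 722 and 78. The O-GlcNAc transferase gene ogt-1 ranked 1026 and 127. F26A3.4 ranked 2439 and 314 at the weaker of its 2 called regions. The stronger one ranked 75 and 314, so both were matched to the same region of replicate 2. Each of these genes had a called peak.

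**Figure D2:**
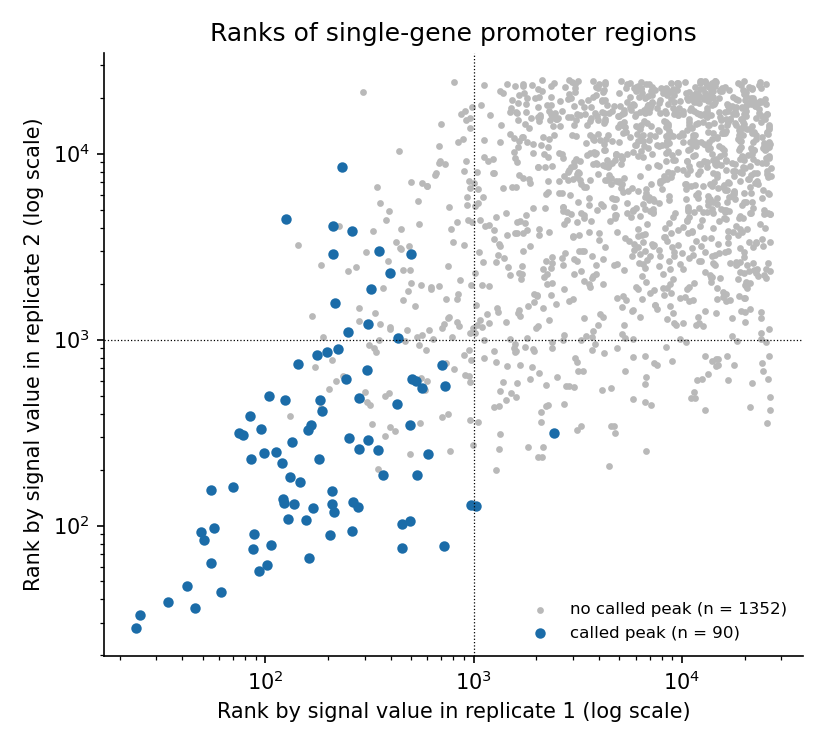
Rank of each single-gene promoter region by signal value in replicate 1 (horizontal) and replicate 2 (vertical), both on log scales, for the 1442 regions found in both. Blue points have a called peak (n = 90), grey points do not (n = 1352), and dotted lines mark rank 1000. The strongest called regions lie close together in both ranks, and several called regions with ranks of 126 to 501 in replicate 1 have ranks above 2000 in replicate 2.

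Called regions were most frequent a short way upstream of the gene. The median called summit lay at -247.5 bp, with quartiles at -417.75 and -145.25 bp, and the median of other members lay at -303 bp, with quartiles at -588.75 and -101 bp. Of the 343 members with summits at -300 to -201 bp, 26 were called (7.58%), the highest share of any 100 bp bin. Nearer the gene the called share was lower, with 10 of 360 called at -200 to -101 bp (2.78%) and 4.09% at -100 to -1 bp. In the 5 bins more than 500 bp upstream, called members made up 1.09% to 2.61%. The share of regions among a replicate's strongest 1000 was also highest in the bin from -300 to -201 bp, at 9.59% in replicate 1 and 9.11% in replicate 2. At -200 to -101 bp it was nearly as high, at 7.97% and 8.70%, unlike the called share. In the bin from 100 to 200 bp inside the gene it was 1.92% in replicate 1 and 5.04% in replicate 2.

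The limits of the window crossed regions of like strength. The last 50 bp inside the upstream limit held 76 regions, 1 of them called, with a median signal value of 19.7, and the 50 bp outside held 69, 1 called, with 20.2. The last 50 bp inside the downstream limit held 94 regions, none called, with 18.5, and the 50 bp outside held 57, none called, with 18.9.

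**Figure D3:**
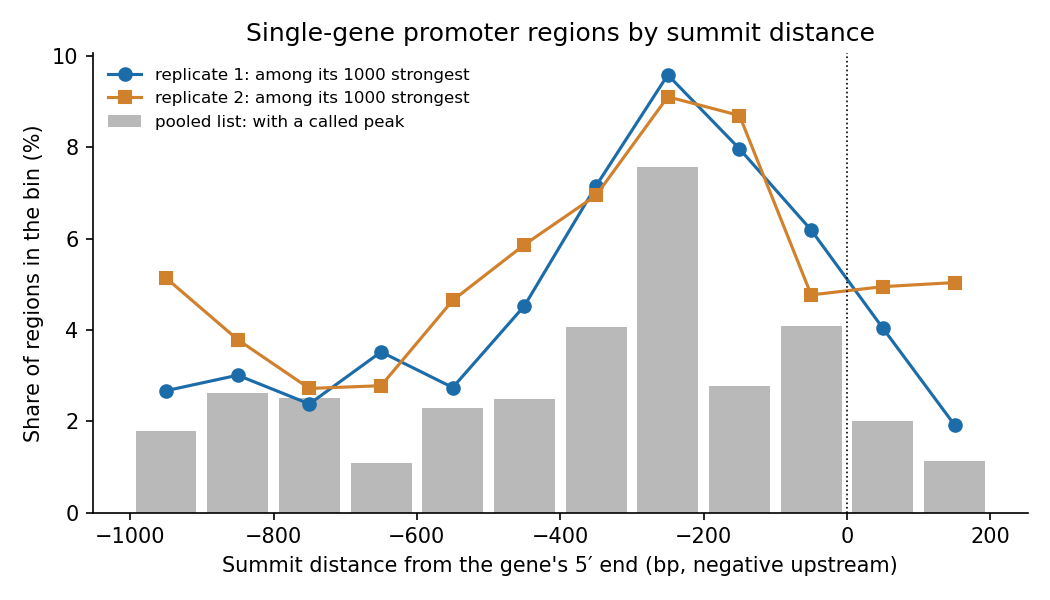
Share of regions (%) in 100 bp bins of summit distance from the 5′ end (bp, negative upstream). Grey bars give pooled members with a called peak, blue circles and orange squares give single-gene promoter regions of each replicate's own list that rank among its 1000 strongest. All 3 series peak in the bin from -300 to -201 bp, at 7.58%, 9.59% and 9.11%.

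Called peaks were more frequent in intergenic, GC-rich and unmasked DNA. Between genes, 80 of 1915 members were called (4.18%). Where the summit lay inside the member's own gene, 6 of 358 were called (1.68%). Inside another gene on the same strand, as happens in operons, 1 of 352 was called (0.284%), at the tyrosine kinase gene kin-14. Inside another gene on the opposite strand, 3 of 163 were called (1.84%). In the replicates' own lists, 83.1% of the strong single-gene regions of replicate 1 lay between genes against 63.0% of the others, and in replicate 2 the shares were 74.0% and 62.7%.

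Base composition moved with strength. Mean GC content of the 200 bp at the summit was 40.6% ± 5.90 (SD over 90 called members) and 33.5% ± 6.69 (SD over 2698 others). With members split at the quartiles of GC content, called shares were 0.140%, 1.60%, 2.71% and 8.91% from the lowest to the highest GC content. The replicates' own strong regions had a mean GC content of 38.9% and 37.4% against 33.2% for the other regions in each. Summits in soft-masked repeats were called in 12 of 1166 members (1.03%) and other summits in 78 of 1622 (4.81%). Among unmasked summits alone the same split gave 0.365%, 2.24%, 3.58% and 10.1%. The share of 36 bp stretches that occur once in the genome averaged 99.7% in called and 99.4% in other members, and its lowest value in a called member was 75.2%, at the DEAH helicase gene mog-4. GC content also affects recovery in sequencing, and its part in the signal was not tested.

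A list of 16 motifs, chosen with earlier results of these data known, was searched on both strands of the 200 bp windows. Most were known elements, but CTGCGTCT was in the list only as a word, so its shares describe and test nothing. Shares in all autosomal promoters refer to the 200 bp upstream of 17242 5′ ends. The word CTGCGTCT was present in 20 of 90 called members (22.2%), 4.45% of other members and 2.98% of all promoters. In the replicates' own lists it was in 15.3% of strong and 2.90% of other single-gene regions in replicate 1, and in replicate 2 it was also more frequent in the strong regions, against 2.52% of the others. In called divergent regions it was in 11.9%, against 5.21% of uncalled ones. The repeat GAGAGAG was in 20.0% of called members, 6.23% of others and 5.10% of all promoters, and in the replicates' strong regions it was in 18.4% and 15.6%, against 4.34% and 4.41%. The E-box CACGTG was in 13.3%, 4.34% and 4.36%, and CACATG in 12.2%, 6.08% and 6.34%. The GC box GGCGGG was in 9 of 90 called members, 4.26% of others and 4.70% of all promoters. With the other members weighted to the GC content of the called ones, the difference for CTGCGTCT went from 17.8 to 13.4 percentage points and that for CACGTG to 6.41, and the latter was 5.12 without replicate 2. The difference for GAGAGAG fell from 13.8 to 7.22 and that for GGCGGG from 5.74 to 0.675.

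The receptor element AGGTCA was in 7 of 90 called members (7.78%), 4.48% of others and 1035 of 17242 promoters, and in the replicates' strong regions it was in 7.66% and 4.46%, against 4.79% and 4.74% of the others, so the strong regions of replicate 1 held it more often than the others and those of replicate 2 did not. The difference between called and other members was 3.29 percentage points, 2.48 with weighting to equal GC content, 2.42 without replicate 1 and 4.06 without replicate 2. The longer AAGGTCA was in 1.11%, 1.33% and 2.29%, AAGTCA was in 9 of 90 called members, 7.82% of others and 8.86% of all promoters, and the DAF-12 type element AGTGCA in 6.67%, 7.15% and 6.14%. The T run, TATA box and splice acceptor were less frequent at called members: TTTTTTTT in 14.4%, 30.5% and 26.4%, TATAAA in 12.2%, 27.3% and 30.6%, and the splice acceptor TTTCAG in 25.6%, 35.9% and 37.4%. With weighting to equal GC content, the difference for TTTTTTTT shrank from -16.1 to -3.15 percentage points and that for TATAAA from -15.1 to -5.07. That for TTTCAG shrank from -10.4 to -3.91, and was -3.73 without replicate 1. In the replicates' strong regions TATAAA was in 19.5% and 23.4%, against 26.8% and 26.6% of the others, a smaller gap than at called members. There TTTTTTTT was in 20.7% and 19.3%, against 30.3% and 30.4%, and TTTCAG in 24.9% and 26.8%, against 37.7% and 36.9%. The GATA factor element CTTATC was in 9 called members, against 9.86% of others. The forkhead element GTAAACA was in 4.44% and 2.85%. The heat shock element TTCNNGAA was in 12.2% and 14.6%, and the E2F element TTCCCGC was in 3.33% and 2.41%. A match is a run of letters and not evidence of binding.

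**Figure D4:**
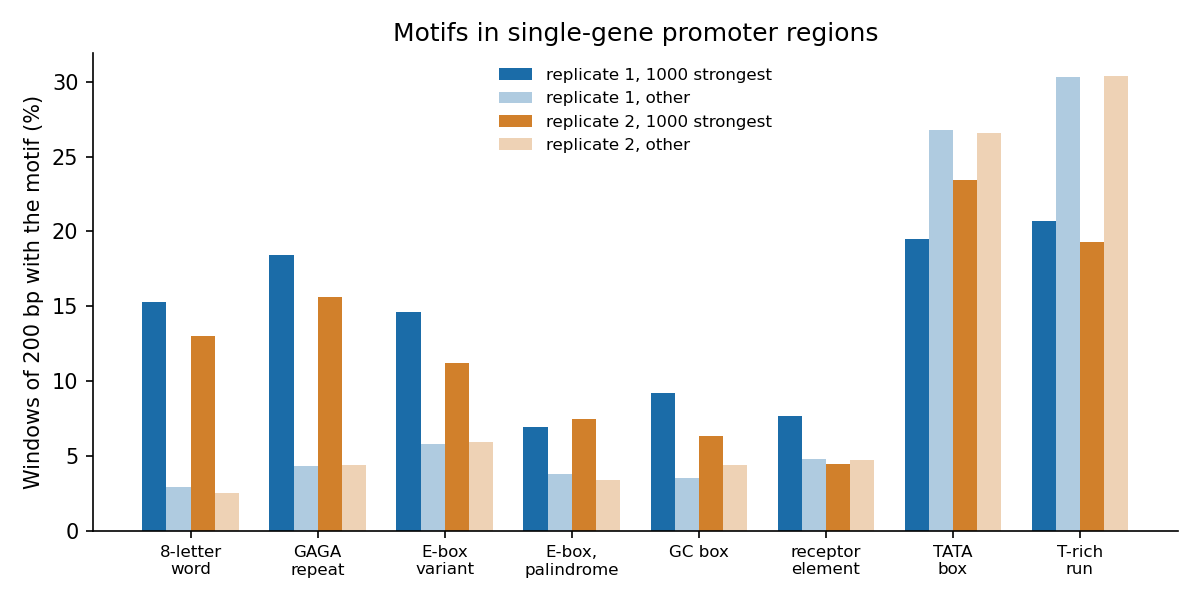
Share (%) of 200 bp windows holding each motif in the single-gene promoter regions of each replicate's list, for those among its 1000 strongest (dark) and the others (pale), replicate 1 in blue and replicate 2 in orange. From left to right are the 8-letter word of the printed sequences with the highest share in called members, the GAGA repeat, both E-boxes (CACATG type first), the GC box, the receptor element, the TATA box and the run of T. The 8-letter word, the GAGA repeat, both E-boxes and the GC box are higher in the strong regions of both replicates. The receptor element is higher in those of replicate 1 only (7.66% against 4.79%).

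A further set of 8-letter words was shared by called windows, counted once per called peak (88 windows) and chosen from the same windows. AACACGCT was in 7 (7.95%), among them those of cdc-48.1, rpl-35, cox-5A, Y39B6A.43, the alpha-tubulin gene tba-2 and the spastin gene spas-1. It was in 0.222% of other members, 0.493% of all promoters and 3 of 42 called divergent regions (7.14%). CTTGCGCA was in 9 (10.2%), at K12H4.5, sec-61.G, fust-1, ints-4, ddp-1, tomm-20, rpl-24.2, spas-1 and ttr-15, against 0.371% of other members and 0.261% of all promoters. GCGCCAGC was in 8 (9.09%) against 0.852%, and ACGCAGAC in 12 (13.6%) against 1.33%. In divergent regions GCGCCAGC went the other way, in 2.38% of called and 4.01% of uncalled ones. There CTTGCGCA was in 2.38% and 1.20%, and ACGCAGAC in 9.52% and 3.01%. CTTGCGCA and GCGCCAGC occurred together in 3 called windows (3.41%), those of fust-1, ddp-1 and rpl-24.2, and in 0.0741% of others. Of the 12 called windows with ACGCAGAC, 11 also held CTGCGTCT, so these 2 words are not separate results. That pair was in 1.00% of other members.

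Each replicate's own list gave the same direction for these words. AACACGCT was in 2.68% and 2.97% of the strong regions against 0.264% and 0.289% of the others, and CTTGCGCA in 4.60% and 3.72% against 0.183% and 0.312%. GCGCCAGC was in 5.75% and 5.58% against 0.467% and 0.445%, and ACGCAGAC in 6.13% of those of replicate 1 against 0.873%, and more often in those of replicate 2 than in its others (1.25%). Over all 90 called members, the difference for CTTGCGCA was 9.63 percentage points, and 7.85 and 5.90 without replicate 1 and without replicate 2. That for ACGCAGAC was 5.36 without replicate 1. Called windows are among these regions, so the shares are not independent of those above.

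Gene lists were read against 89 called genes among the 2605 with a region (3.42%). Of the lists of general cell functions, ribosomal proteins had 18 genes with a region and 3 called (16.7%), rpl-3, rpl-35 and rpl-24.2, the last in the list by its symbol. Chaperones had 11 and 2 called (18.2%), hsp-1 and dnj-9. Translation factors had 7 and 1 (eif-3.C), the respiratory chain and ATP synthase 9 and 1 (cox-5A), ubiquitin enzymes 13 and 1 (cdc-48.1) and histones 5 and 1 (his-37). Aminoacyl-tRNA synthetases (6), proteasome subunits (6), mitochondrial ribosomal proteins (14) and V-ATPase subunits (5) had regions and none called, and the splicing list had no region. The only called gene of the ubiquitin list, cdc-48.1, encodes a p97-type ATPase and was in the list by its own symbol. The lists were chosen with earlier results of these data known, so their counts describe and test nothing. Counts this small move by a large share with 1 gene.

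Nuclear hormone receptor genes had 54 with a region and 5 called (9.26%): nhr-79 at a signal value of 77.8, nhr-58 at 58.6 (282 and 486), nhr-105 at 57.9 (507 and 610), nhr-256 at 52.2 (248 and 1093) and nhr-135 at 45.0 (434 and 1020). The count rested on the use of both replicates, and was 1 with the strongest regions of replicate 2 alone and 3 with those of replicate 1 alone. Collagens had 30 and 1 called (col-119), fat metabolism genes 14 and 1 (pmt-1, of phosphatidylcholine synthesis) and neuropeptides 13 and 1 (nlp-24). With replicate 2 alone (without replicate 1) and replicate 1 alone, the called genes numbered 3 and 0 for collagens, 2 and 0 for translation factors and 0 and 0 for neuropeptides, and fat metabolism had 0 without replicate 1. No gene was called among chemoreceptor genes, the list with the most genes that have a region, or among 27 F-box and MATH genes, 20 cytochrome P450 and UGT genes, 12 C-type lectins, 9 homeobox genes, 9 ion channel genes or 2 small GTPases with a region. Of the tissue marker lists, intestine, hypodermis and body wall muscle had no region, and pharynx (1), neuron (1, snb-1) and germline (2, cgh-1 and gld-1) had regions and none called. A region says nothing about which tissue of the larva it came from.

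**Figure D5:**
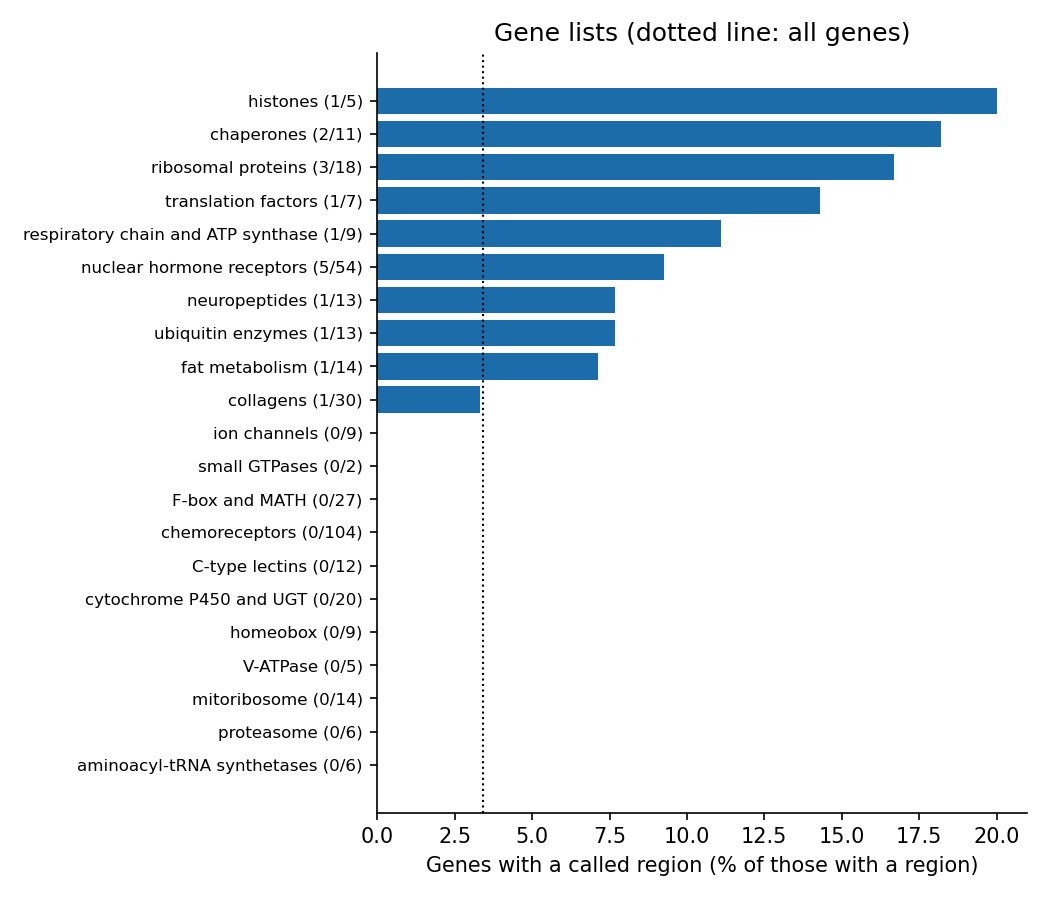
Percentage of genes with a called region among the genes of each list that have any single-gene promoter region, with the called and total genes in brackets. The dotted line marks the 3.42% of all such genes. Histones, chaperones and ribosomal proteins stand at 20.0%, 18.2% and 16.7% on 5, 11 and 18 genes, and 11 of the lists shown stand at 0; the tissue marker lists and lists with no region are not drawn.

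The gene of the tagged receptor and the genes of its known pathway were not among the called members. The nhr-76 region on chromosome IV ranked 1644 in the pooled list with a signal value of 28.9, 70 bp upstream of the 5′ end, with ranks 6160 and 1863 in the replicates. Of the 3 members within 50 kb of nhr-76, none was called. At atgl-1 the better of 2 regions ranked 3802 with a signal value of 22.5, 774 bp upstream, and it had no matching summit in replicate 2. There was no member at npr-22.

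Called members were spread over the autosomes and occasionally adjoined each other. Chromosome I held 22 called of 528 (4.17%), II 17 of 518 (3.28%), III 16 of 512 (3.12%), IV 11 of 543 (2.03%) and V 24 of 687 (3.49%). With each chromosome cut into 3 equal parts, the central parts held 48 called of 1164 (4.12%), the left parts 2.39% and the right parts 2.77%. Summits in masked repeats made up 34.8% of members in the central parts, 48.4% in the left and 45.4% in the right. Their part in this difference was not tested. In 7 pairs, the summits of called regions lay within 5000 bp of each other. These were icd-2 with wwp-1, C32D5.8 with the Atg8-type autophagy gene lgg-1 (1709 bp), a run of 4 summits at F55H12.7, F55H12.2 and spe-54, and double summits at F26A3.4 and F56C9.10. The 3 genes F26A3.4, F55H12.7 and F56C9.10 each had 2 called regions, with summits 199 to 205 bp apart. Only 88 called peaks accounted for the 90 called regions, so not every such pair stands for 2 called peaks.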

How the data were processed

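ChIP-seq regions were analysed as the authors deposited them, in ce11 coordinates: 1 list per biological replicate (26700 and 24791 regions), 1 pooled list (13052) and 1 called list (319). Per the notes deposited with the lists, the first 3 were input for IDR, a test of reproducibility between replicates, and the called list came from it. Neither aligner nor peak caller is named in the sources read. The deposited signal value is a score of unstated scale; ranks within 1 list were taken from it, and positions from the deposited summit offset. The files used give no read counts, so depth is unknown; the control, q-values and ce10 lists were not used here.

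Gene ends came from Ensembl release 115 on WBcel235, the same assembly as ce11, and sequence and repeat masking from its RefSeq copy. Regions were matched by summits within 200 bp. GC content, masking and motifs were taken over 200 bp at the summit. With 1 group of 2 replicates no contrast exists, so no test was made; each replicate's own value stands beside the pooled one as the error (n = 2). The classification and the word count were tested on simulated data. Python 3.11.15, numpy 2.4.6 and pandas 2.3.3 were used.

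The rule for named genes took the 25 strongest called members, up to 4 called genes of each list, the 5 strongest uncalled members, nhr-76, atgl-1 and npr-22. Other genes, such as the fifth called receptor gene and those named for rank gaps, words, context or spacing, were chosen after their values were seen. The printed sequences leave out called members at annotated exons and 22 on a chromosome that is not printed. The sequence of 1 further window is not reported here. The members, gene lists and motifs were chosen with earlier results of these data known.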

Additional observations from a re-analysis of the deposited data

How the results depend on the processing

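The share of members with a called peak, 3.23%, was 4.12% with a window of 500 bp upstream and 2.40% with 2000 bp, and ran from 2.58% to 3.37% when the strongest regions of 1 replicate alone stood for the called list. The share among the strongest 1000 of both replicates was 5.18% and 3.35% with those windows, 9.40% to 9.51% with 1 replicate alone, 2.58% with the strongest 500 and 7.42% with the strongest 2000. The median called summit moved to 214 and 327 bp upstream with the windows (-214 and -327). The share of single-gene promoter regions among the strongest, 26.5% as the mean of both replicates, was 23.1% and 30.2% with the windows, 25.4% with exactly 1 gene in reach, 27.4% with small RNA genes kept and 27.3% with the strongest 500. The difference in GC content, 7.05 percentage points, was 10.5 over 100 bp and 5.66 without masked summits, an alternative chosen after seeing the data. With others weighted to equal GC content, the difference for TTTTTTTT went to -3.15 and that for TATAAA to -5.07. The difference for ACGCAGAC ran from 5.36 to 9.23 with 1 replicate alone. These differences changed sign: AAGGTCA at 0.666 over 100 bp; AAGTCA at -5.25 to 3.94 and AGTGCA at -0.198 to 0.320 with 1 replicate alone; CTTATC at -0.856 over 100 bp and -0.299 to -0.145 with 1 replicate alone; and, with others weighted to equal GC content, TTCNNGAA at 0.494 and TTCCCGC at -0.466. The cause was not tested. In all, 8 recomputed differences changed sign. The number of members, 2788, was 2086 and 3701 with the 500 and 2000 bp windows. The lack of read counts limits every value to ranks and shares. No paired analysis was possible because there is 1 group.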
